A study of Mus musculus with 16 samples.

Results

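The 9 genes described here encode receptor chains for interleukin-6, interleukin-12, interleukin-18, interleukin-27, interleukin-10 and interferon gamma: Il6ra, Il6st, Il12rb1, Il12rb2, Il18r1, Il18rap, Il27ra, Il10ra and Ifngr1. They were taken by name from 22180 measured genes, and each was read by a single probe set that carries no other gene symbol. Expression was measured on arrays in spleen CD8 T cells of female mice of the strain labelled C56BL/6, whose bone marrow had been replaced and which had then been given leukaemia cells from Eµ-TCL1 mice, a model of chronic lymphocytic leukaemia (CLL). The 4 groups held 4 arrays each, all taken 5 weeks after the leukaemia transfer: effector KO (CD44 positive, CD127 negative cells from mice with Il4i1 knockout marrow), effector WT (the same sort from mice with wild-type marrow), memory KO (CD44 high, CD127 high cells, knockout marrow) and memory WT (the same sort, wild-type marrow). Il4i1 encodes a secreted amino acid oxidase. All 4 groups carried leukaemia, so no group shows these cells in healthy mice, and the labels give neither the age of the mice, nor the share of host cells left after the chimera was made, nor whether the arrays of a group are separate animals. The p-values therefore measure the spread between arrays, which may be technical.

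In the mouse genome (GRCm38.p6), Il18r1 (chr1:40465552-40500854) and Il18rap (chr1:40515362-40551707) lie next to each other on chromosome 1. Il6ra spans chr3:89869324-89913196, Il12rb2 chr6:67285986-67376293, Il10ra chr9:45253837-45269149, Ifngr1 chr10:19591949-19610229 and Il6st chr13:112464070-112506860. Il12rb1 (chr8:70808360-70823542) and Il27ra (chr8:84030286-84042600) are both on chromosome 8. Il4i1, the gene knocked out, is on chromosome 7 with 0 of the 9 chains.

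Most of these receptors work by ligand-driven pairing of chains that hold JAK kinases, which then phosphorylate STAT transcription factors. Il6ra binds interleukin-6 and hands it to Il6st (gp130), the signalling chain that interleukin-27 also uses together with Il27ra. Il12rb1 and Il12rb2 form the interleukin-12 receptor, in which Il12rb2 recruits STAT4, and Il12rb1 also serves interleukin-23. Il18r1 binds interleukin-18 and Il18rap completes that receptor, which signals through MyD88 in place of JAK kinases. Il10ra and Ifngr1 are the ligand-binding chains for interleukin-10 and interferon gamma. In CD8 T cells interleukin-12 and interleukin-18 are known to drive interferon gamma production together, while interleukin-6 receptor is typical of naive and central memory cells.

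All values are log2 expression as deposited, and a difference of 1 is a doubling. The T cell and CD8 identity genes, 7 of 10 with a usable probe set, averaged 11.07 to 11.16 in effector KO, 11.05 to 11.21 in effector WT, 11.01 to 11.10 in memory KO and 10.94 to 11.06 in memory WT. Il7r, the gene of the sort marker CD127, separated the sorts: it lay at 5.00 to 6.60 in effector KO, at 3.83 to 4.46 in effector WT, and at 10.29 or more on every memory array. Array effector KO 4 stood apart, correlating at 0.965 to 0.974 over genes with the other arrays, against 0.971 to 0.994 among all other pairs. Signal of other cells differed between the sorts. B and CLL cell markers (12 of 14 measured) had a list mean of 4.23 to 4.56 in effector KO, 4.19 to 4.36 in effector WT, 4.86 to 5.30 in memory KO and 5.26 to 6.09 in memory WT. The fit used below (limma, adjusted p under 0.05) called 10 of the 12 lower in effector cells of WT and 3 in KO. It called 2.30% of all genes lower in WT and 4.30% in KO. Fcer2a and Cr2 were under the array median on all arrays, while Ms4a1, Cd79a, Pax5 and Cd22 were above it on all 4 memory WT arrays, at means of 5.67, 5.85, 5.36 and 5.55. Ighm was above the median in every group, at 9.56 in effector KO, 8.93 in effector WT, 11.33 in memory KO and 11.09 in memory WT. Myeloid markers (12 measured, Cd14 under the median on all arrays) averaged 4.73 to 5.07 in effector KO, 4.90 to 4.94 in effector WT, 4.80 to 5.90 in memory KO and 5.32 to 5.75 in memory WT. NK cell markers (7 measured, Klri2 under the median on all arrays) averaged 6.19 to 7.01, 5.84 to 6.33, 6.57 to 7.12 and 6.33 to 6.72 in the groups in that order. Members of this list differed widely: Ncr1 had group means of 3.66, 3.52, 4.18 and 3.81, above the array median only on 1 memory KO array. Klrb1c had 3.89, 3.56, 5.78 and 4.93, above the median on 1 effector KO, 4 memory KO and 3 memory WT arrays. Gzma had 9.40, 7.65, 9.18 and 8.72, and Eomes 10.04, 10.04, 9.49 and 9.71. Over both genotypes the fit called Klrb1c (-1.63, adjusted p = 0.00126) and Ncr1 (-0.40, 0.0439) lower in effector cells, and Eomes higher (0.44, 0.000344). Of all genes, 7.11% were called lower and 5.05% higher. The NK list mean is therefore not a measure of NK cell number. CD4 and regulatory T cell markers (6 measured, Cd40lg under the median on all arrays) averaged 4.96 to 5.77, 5.56 to 5.71, 4.85 to 5.54 and 5.57 to 5.92. The part of these cells in the receptor differences below was not tested.

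The stretches just before the start of the genes are shown for Il6ra and Il12rb2, the chains that differed most between the sorts, and for Il18r1 and Il18rap, neighbouring genes that moved together. Sequences are from RefSeq (GRCm38.p6), on the strand of the gene, ending at the base before the annotated gene, with matches to the motifs named below in capitals. Il18r1 has 3 listed starts, of which the most upstream is printed.
Il6ra chr3:89913197-89913446 (minus strand): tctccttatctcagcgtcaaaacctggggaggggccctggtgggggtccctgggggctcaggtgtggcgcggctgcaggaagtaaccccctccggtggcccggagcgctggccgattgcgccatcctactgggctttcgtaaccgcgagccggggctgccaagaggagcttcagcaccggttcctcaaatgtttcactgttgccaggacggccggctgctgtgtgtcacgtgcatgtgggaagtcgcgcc
Il12rb2 chr6:67376294-67376438 (minus strand): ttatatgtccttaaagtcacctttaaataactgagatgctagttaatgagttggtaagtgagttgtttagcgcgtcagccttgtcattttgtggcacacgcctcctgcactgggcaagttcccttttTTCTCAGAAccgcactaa
Il18r1 chr1:40465302-40465551 (plus strand): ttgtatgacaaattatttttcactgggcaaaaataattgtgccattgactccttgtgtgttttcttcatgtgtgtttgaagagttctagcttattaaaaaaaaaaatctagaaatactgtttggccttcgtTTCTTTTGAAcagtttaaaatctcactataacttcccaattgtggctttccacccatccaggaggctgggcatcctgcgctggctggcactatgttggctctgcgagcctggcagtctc
Il18rap chr1:40515112-40515361 (plus strand): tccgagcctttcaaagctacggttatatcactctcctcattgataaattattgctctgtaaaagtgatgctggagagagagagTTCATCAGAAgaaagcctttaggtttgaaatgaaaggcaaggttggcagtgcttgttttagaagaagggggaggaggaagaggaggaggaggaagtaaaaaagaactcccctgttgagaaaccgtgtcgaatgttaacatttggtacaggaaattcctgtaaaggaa

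A set of 4 motifs was searched on both strands in the 250 bases before each listed start. The STAT dimer site TTCNNNGAA occurs in 7.02% of all 32851 listed windows, its wider form TTCNNNNGAA in 5.85%, the T-box site TCACACC in 3.33% and the interferon-stimulated response element in 2.98%. The table lists 6 of the 9 genes, not Il12rb1, Il27ra and Il10ra. Il12rb2 holds TTCNNNGAA 123 bases before its listed start, which lies inside the annotated gene, so that only the 145 bases outside the gene are printed. Il18r1 holds TTCNNNNGAA 119 bases before the printed start, and Il18rap holds the same form 167 bases before its own. A further Il18r1 start inside the gene has TTCNNNGAA at 219 and 152 bases before it. The windows of Il6ra, Il6st and Ifngr1 hold none of these motifs, which says only that the letters are not in this window. A match describes the letters and was not tested as a binding site.

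Effector cells carried less of several receptor chains than memory cells, and more of others. In both genotypes Il6ra, Il12rb2, Il18r1 and Ifngr1 were lower in effector cells and Il12rb1 was higher. The fit (limma, adjusted over all genes, threshold an adjusted p of 0.05) called 7 of the 9 chains in KO, 2 higher and 5 lower in effector cells, where it called 7.43% of all genes (3.14% higher, 4.30% lower). In WT it called 5 of the 9, 1 higher and 4 lower, where it called 3.22% of all genes (0.920% higher, 2.30% lower). Averaged over both genotypes 7 were called, 2 higher and 5 lower, against 12.2% of all genes (5.05% higher, 7.11% lower). The median difference of the 9 chains was -0.86 in KO and -0.69 in WT, while that of all genes was 0.01 in each. In bulk RNA, fewer cells that express a chain and less RNA per cell cannot be told apart. KO and WT here are separate arrays, so the effector minus memory values of the 2 genotypes come from different samples.

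**Figure D1:**
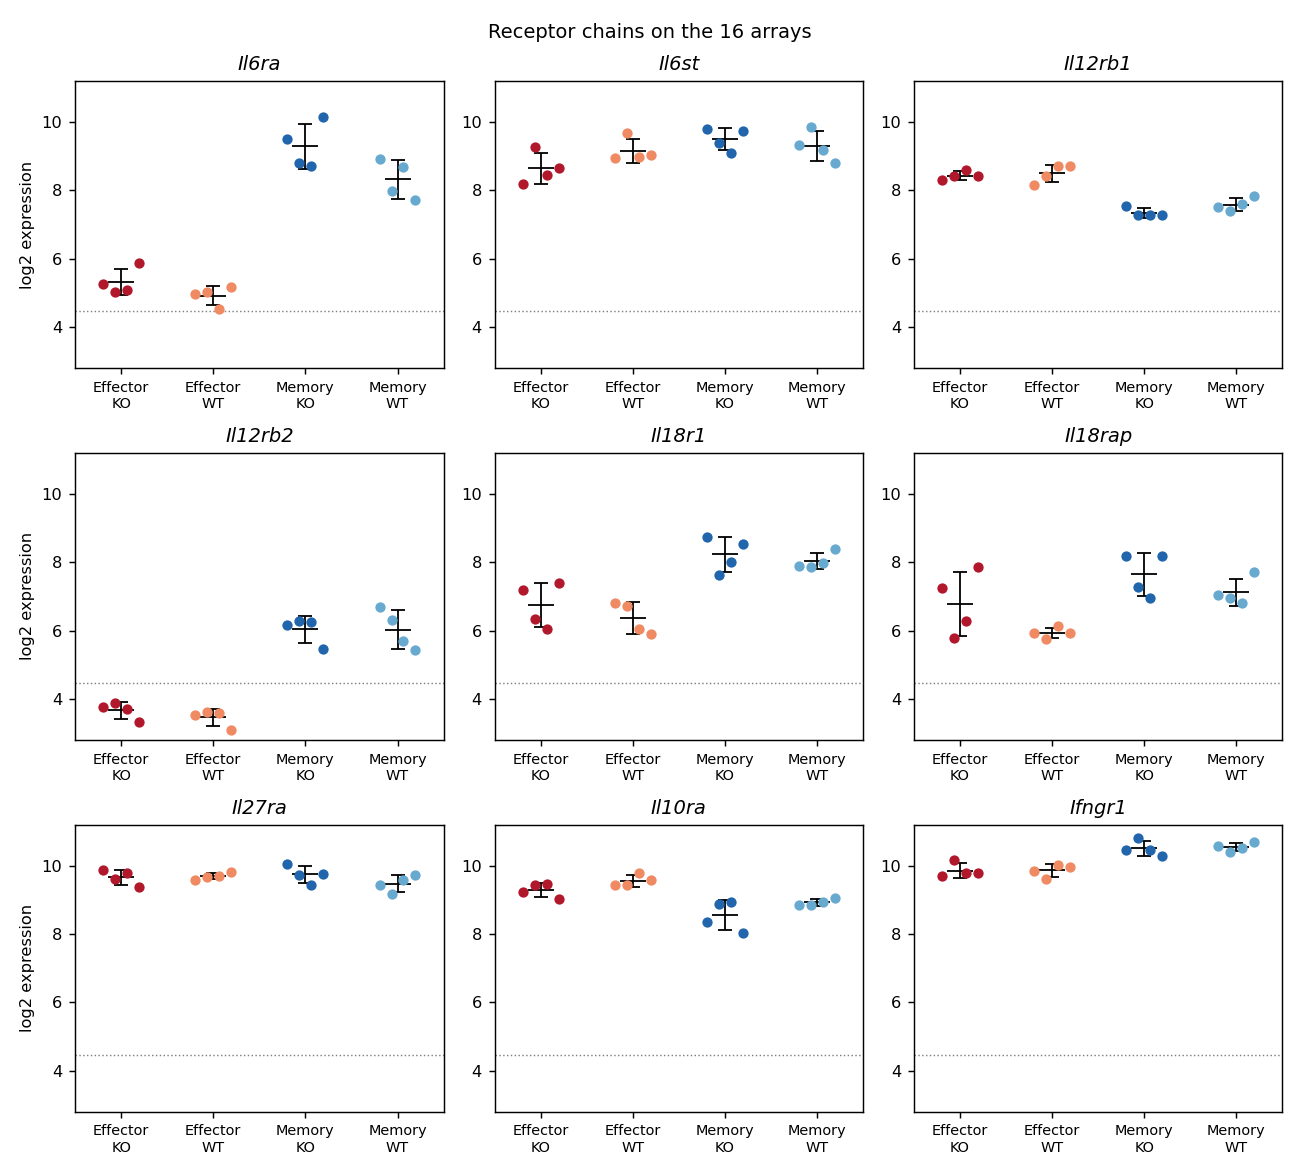
Log2 expression of the 9 receptor chains (y axis) in the 4 groups (x axis), with a point for each of the 4 arrays of a group, bars for the mean and SD, and a dotted line at the mean of the array medians. Il6ra and Il12rb2 lie far lower on the effector arrays, Il12rb1 higher, and Il27ra at about the same level in all groups.

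Il6ra, the interleukin-6 binding chain, differed most. Its level was 5.26, 5.02, 5.10 and 5.88 on the effector KO arrays and 9.50, 8.80, 8.70 and 10.14 on the memory KO arrays. In WT it was 4.97, 5.03, 4.54 and 5.16 in effector cells and 8.91, 7.98, 8.68 and 7.71 in memory cells. The highest effector array, at 5.88, lay well under the lowest memory array, at 7.71. The difference was -3.97 ± 0.31 (SE, n = 4 and 4) in KO, or 15.7-fold lower (adjusted p = 3.35e-06), and -3.40 ± 0.31 in WT, or 10.5-fold lower (adjusted p = 1.66e-05). Over both genotypes the groups of 8 arrays did not overlap, which held for 5 of the 9 chains and for 2.65% of all genes.

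Il6st, the gp130 chain that signals for interleukin-6 and interleukin-27, changed far less. It was at 8.20, 9.27, 8.44 and 8.66 in effector KO and at 9.79, 9.38, 9.09 and 9.74 in memory KO, where the highest effector array overlapped the memory range. Effector WT arrays read 8.95, 9.68, 8.98 and 9.04 and memory WT arrays 9.34, 9.86, 9.17 and 8.79, which overlap throughout. It was 1.82-fold lower in effector cells of KO (-0.86 ± 0.25, adjusted p = 0.0467) and at -0.13 ± 0.25 in WT (adjusted p = 0.899). The KO call was lost in 13 of 24 alternative settings, among them those without effector KO 1, 3 or 4 (adjusted p = 0.132, 0.11 and 0.0641), without memory KO 1, 2 or 4 (0.117, 0.0693 and 0.136), without effector WT 1, 3 or 4 (0.0583, 0.0588 and 0.0606) and without memory WT 1 or 3 (0.06 and 0.0603). The interaction, which tests whether KO and WT differ in this respect, was -0.74 ± 0.35 (adjusted p = 0.841). Averaged over both genotypes, the Il6st difference of -0.49 ± 0.18 did not pass (adjusted p = 0.0863), but it did without effector KO 2 (-0.60, adjusted p = 0.0271), effector WT 2 (-0.58, 0.0447) or memory WT 4 (-0.58, 0.0456).

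Il27ra, the partner of gp130 for interleukin-27, did not pass between the sorts. Its group means were 9.66 ± 0.21 in effector KO, 9.69 ± 0.09 in effector WT, 9.74 ± 0.26 in memory KO and 9.48 ± 0.24 in memory WT (SD, n = 4 each). The effector minus memory difference was -0.09 in KO (95% interval -0.39 to 0.22) and 0.21 in WT (-0.09 to 0.52). All 4 groups overlapped their neighbours in the order of levels.

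The chains of the interleukin-12 receptor moved in opposite directions. Il12rb2 read 3.76, 3.89, 3.71 and 3.32 in effector KO and 6.15, 6.29, 6.25 and 5.45 in memory KO. Effector WT arrays had 3.53, 3.63, 3.60 and 3.09, and memory WT arrays 6.68, 6.30, 5.69 and 5.43. The effector signal lay under the array median (4.44 to 4.54) on all 8 arrays, and the table carries no detection call, so the size of the fold is uncertain. As measured it was 5.16-fold lower in effector cells of KO (-2.37 ± 0.24, adjusted p = 2.94e-05) and 5.91-fold lower in those of WT (-2.56 ± 0.24, adjusted p = 2.54e-05).

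Il12rb1, the other chain, was at 8.29, 8.41, 8.60 and 8.42 in effector KO and at 7.55, 7.27, 7.27 and 7.28 in memory KO. In WT the arrays had 8.17, 8.41, 8.71 and 8.70 in effector cells and 7.51, 7.41, 7.59 and 7.83 in memory cells. Every effector array was above every memory array. Il12rb1 was 2.12-fold higher in effector cells of KO (1.09 ± 0.13, adjusted p = 0.000115) and 1.88-fold higher in those of WT (0.91 ± 0.13, adjusted p = 0.000741). The calls of both interleukin-12 chains stood under all 24 alternative settings in each genotype.

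The chains of the interleukin-18 receptor were both lower in effector cells, Il18r1 with a call in each genotype and Il18rap over both genotypes. Il18r1 had 7.18, 6.35, 6.05 and 7.39 in effector KO and 8.75, 7.62, 8.01 and 8.53 in memory KO. It had 6.82, 6.73, 6.06 and 5.89 in effector WT and 7.88, 7.87, 7.98 and 8.38 in memory WT. The sorts did not overlap in either genotype, and in effector KO the arrays 1 and 4 were the highest. Il18r1 was 2.8-fold lower in effector cells of KO (-1.48 ± 0.30, adjusted p = 0.00644) and 3.14-fold lower in those of WT (-1.65 ± 0.30, adjusted p = 0.00551).

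Il18rap, the signalling partner, was more spread. Effector KO arrays had 7.25, 5.78, 6.27 and 7.85 and memory KO arrays 8.17, 7.28, 6.95 and 8.19, so that effector KO 1 and 4 reached into the memory KO range. Effector WT arrays had 5.93, 5.74, 6.12 and 5.94 and memory WT arrays 7.04, 6.95, 6.80 and 7.70, without overlap. The SD in effector KO was 0.94, against 0.16 in effector WT (n = 4 each). The difference between the sorts was -0.86 ± 0.37 in KO (adjusted p = 0.199) and -1.19 ± 0.37 in WT (adjusted p = 0.104), and over both genotypes it passed at 2.04-fold lower (-1.03 ± 0.26, adjusted p = 0.0163). Without effector KO 4 it passed in KO (-1.21, adjusted p = 0.0338) and in WT (-1.19, adjusted p = 0.0389), and it also passed in WT when the 8 WT arrays were fitted alone (adjusted p = 0.00379). In all it passed in 2 of 24 alternative settings in KO and 4 of 24 in WT. These include replicate numbers as a block within genotype (adjusted p = 0.0224 in KO and 0.00712 in WT), a pairing that the labels do not state.

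Ifngr1, the binding chain for interferon gamma, was lower in effector cells by a small and even amount. It read 9.69, 10.16, 9.79 and 9.78 in effector KO and 10.47, 10.81, 10.46 and 10.29 in memory KO. Its values were 9.83, 9.61, 10.03 and 9.97 in effector WT and 10.58, 10.39, 10.53 and 10.68 in memory WT. The sorts did not overlap, and the difference was 1.57-fold in KO (-0.65 ± 0.13, adjusted p = 0.00612) and 1.61-fold in WT (-0.69 ± 0.13, adjusted p = 0.00749).

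Il10ra, the binding chain for interleukin-10, was higher in effector cells. It had 9.22, 9.44, 9.47 and 9.02 in effector KO and 8.36, 8.88, 8.94 and 8.02 in memory KO. In WT it had 9.42, 9.44, 9.78 and 9.58 in effector cells and 8.85, 8.85, 8.94 and 9.06 in memory cells. No effector array overlapped the memory arrays of its own genotype. Il10ra rose 1.66-fold in effector cells of KO (0.73 ± 0.17, adjusted p = 0.0149), and in WT the difference of 0.63 ± 0.17 did not pass (adjusted p = 0.058). Over both genotypes it was 0.68 ± 0.12 higher (adjusted p = 0.00124). The WT value passed in 10 of 24 alternative settings, among them those without effector KO 4 (adjusted p = 0.0406) or memory KO 2, 3 or 4 (0.0495, 0.0418 and 0.0196), arrays that enter only the shared estimate of spread. The KO call was lost when the 8 KO arrays were fitted alone (adjusted p = 0.11), whereas the WT value passed when the 8 WT arrays were fitted alone (0.00575). In all, 6 of the 9 chains did not overlap between the sorts in KO, against 10.2% of all genes, and 7 of 9 in WT, against 13.2%.

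**Figure D2:**
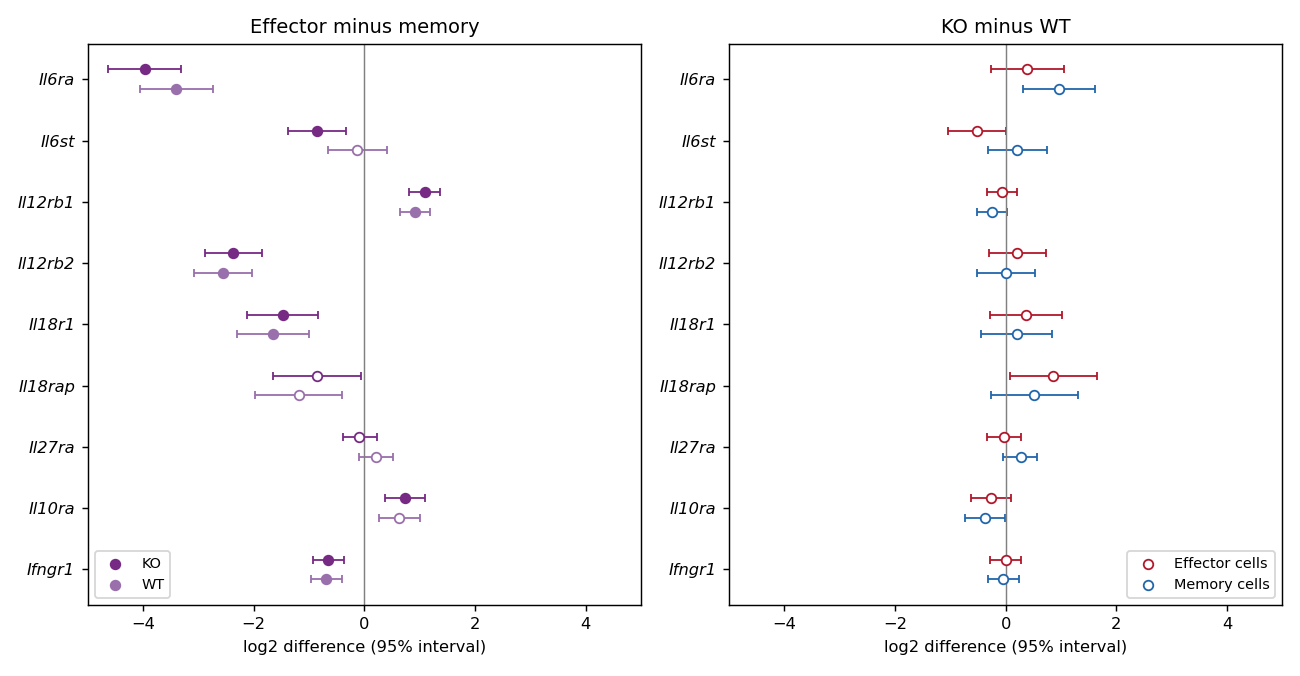
Log2 differences with 95% intervals (x axis) for the 9 receptor chains (y axis), effector minus memory in KO and WT on the left and KO minus WT in effector and memory cells on the right. Filled points passed an adjusted p of 0.05 and open points did not: filled points occur only on the left, with Il6ra at -3.97 and -3.40.

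Loss of Il4i1 in the marrow moved none of the 9 chains past the threshold in either sort. In effector cells limma called 0 of the 9 and 0.0541% of all genes, and at an unadjusted p under 0.05 1 of the 9 (Il18rap) and 9.32% of all genes. In memory cells it called 0 of the 9 and 0.113% of all genes, and at an unadjusted p under 0.05 2 of the 9 (Il6ra and Il10ra) and 11.3% of all genes. Over both sorts it called 0 of 9 and 0.194% of all genes, with 3 of the 9 (Il6ra, Il18rap and Il10ra) and 13.9% of all genes at an unadjusted p under 0.05. For the interaction it called 0 of 9 and 0.00% of all genes, with 0 of the 9 and 5.84% of all genes at that unadjusted level. Every chain overlapped between KO and WT in each sort, whereas 4.65% of all genes did not overlap in effector cells and 6.49% did not in memory cells.

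Among the chains in memory cells, Il6ra had the smallest unadjusted p. It averaged 9.29 ± 0.67 in memory KO and 8.32 ± 0.56 in memory WT (SD, n = 4 each), a difference of 0.97 with a 95% interval of 0.31 to 1.62 (adjusted p = 0.25). Memory KO 1 and 4 lay above all memory WT arrays, while memory KO 2 and 3 lay inside their range. In effector cells the difference was 0.39 (-0.26 to 1.05), where KO averaged 5.32 and WT 4.92. B and CLL cell markers on the same memory arrays ran from 4.86 to 5.30 in KO and from 5.26 to 6.09 in WT. Il7r, whose protein defined the sort, was at 5.00 to 6.60 in effector KO and 3.83 to 4.46 in effector WT. It passed between KO and WT in effector cells, 3.14-fold higher in KO (1.65 ± 0.25, adjusted p = 0.0183). In memory cells Il7r did not pass (0.38 ± 0.25, adjusted p = 0.617). The part of these differences in the Il6ra values was not tested.

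Il18rap averaged 6.79 in effector KO and 5.93 in effector WT, a difference of 0.86 (95% interval 0.07 to 1.65, adjusted p = 0.525), and in memory cells it was at 0.52 (-0.27 to 1.31). Arrays 1 and 4 were the highest of their group in effector KO and also in memory KO. The same arrays had the highest NK cell marker means of their group, at 6.70 and 7.01 in effector KO (6.19 and 6.38 on arrays 2 and 3) and 7.12 and 6.71 in memory KO (6.58 and 6.57). Effector WT arrays had NK marker means of 5.84 to 6.33 and memory WT arrays of 6.33 to 6.72. Within that list, Ncr1 and Klri2 were under the array median on all 4 effector KO arrays, and Klrb1c was above it on 1. In memory cells Klrb1c was above the median on all 4 KO arrays and on 3 WT arrays, and Ncr1 on 1 KO array. Gzma ran from 8.06 to 10.80 on the effector KO arrays. The part of NK cells in the Il18rap values was not tested. Il18r1 differed by 0.37 in effector cells (-0.28 to 1.01) and by 0.20 in memory cells (-0.44 to 0.84). Il10ra was at -0.27 in effector cells (-0.63 to 0.09) and at -0.37 in memory cells (-0.74 to -0.01, adjusted p = 0.432), where memory KO 1 and 4 lay under all memory WT arrays and memory KO 2 and 3 did not.

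Il6st was at -0.52 between KO and WT in effector cells (95% interval -1.05 to 0.01) and at 0.21 in memory cells (-0.32 to 0.74). Il12rb1 differed by -0.06 in effector cells (-0.34 to 0.21) and -0.24 in memory cells (-0.52 to 0.03). Il12rb2 differed by 0.21 (-0.31 to 0.73) and 0.01 (-0.51 to 0.53), Il27ra by -0.03 (-0.34 to 0.27) and 0.27 (-0.04 to 0.57), and Ifngr1 by 0.00 (-0.28 to 0.28) and -0.04 (-0.32 to 0.24), in effector and memory cells in that order. An unpassed test does not show that KO and WT were alike. Differences inside these intervals, which are not adjusted for the number of genes, were not excluded with 4 arrays a group.

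In the order of levels, 5 chains showed the same single gap, between the sorts, with KO and WT of a sort overlapping on each side of it: Il6ra, Il12rb2 and Il18r1 (memory KO highest, effector WT lowest), Ifngr1 (memory WT highest, both effector groups at 9.86) and Il12rb1 (effector WT highest, memory KO lowest). Il18rap kept the order of Il6ra, but each group overlapped the next. Il10ra had the order of Il12rb1, with 9.56 in effector WT as the highest mean and 8.55 in memory KO as the lowest, again with each neighbour overlapping. Il6st and Il27ra showed no gap between any neighbouring groups.

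A correlation between chains over all 16 arrays includes the difference between the sorts, so that the group means were first removed. Taken as deviations from the group means (Pearson, 16 arrays, sharing array and normalization, given as a description), Il18r1 and Il18rap had r = 0.73. Il6ra and Il10ra had r = -0.84, and Il10ra was also negative with Il18r1 (-0.68) and Il18rap (-0.62). Il12rb1 and Il12rb2 had r = -0.36. Il6ra and its partner Il6st had r = 0.27, and Il27ra and Il6st had -0.24.

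**Figure D3:**
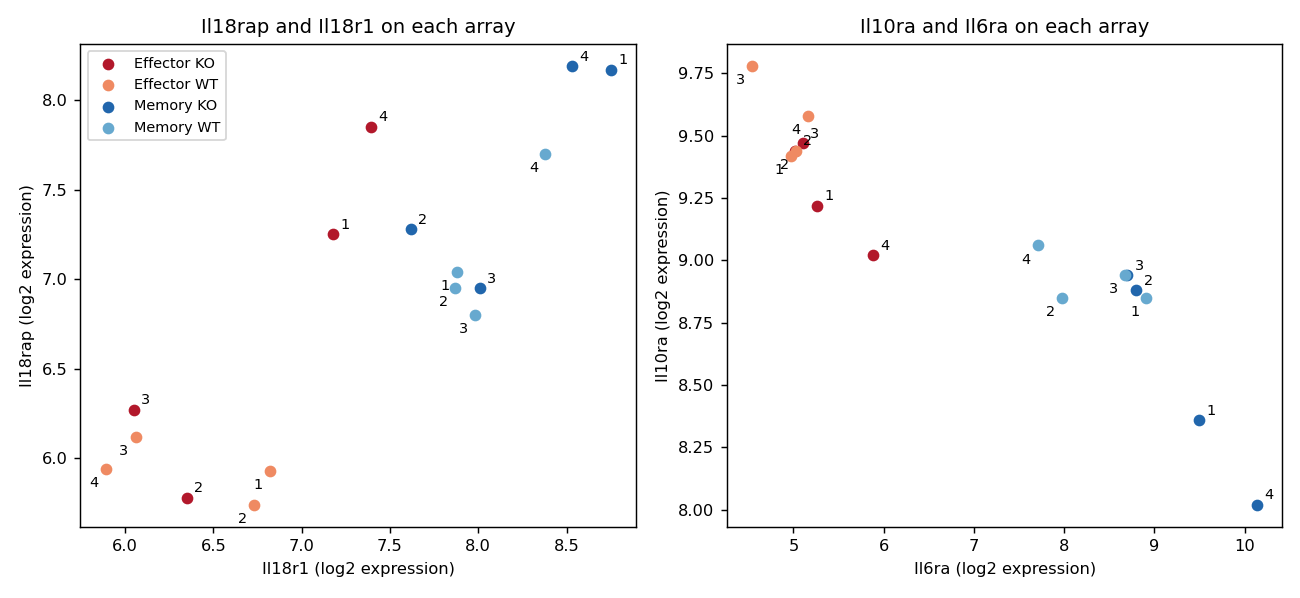
Log2 expression of Il18rap against Il18r1 (left) and of Il10ra against Il6ra (right), with a point for each array, coloured by group and marked with its replicate number. Memory KO 1 and 4 lie at the top right for the interleukin-18 chains and at the bottom right for Il10ra and Il6ra, where they read 8.36 and 8.02 for Il10ra.

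The genes whose levels ran most like each chain over the 16 arrays were picked by the highest Pearson r, a description that includes the difference between the sorts. For Il6ra they were Rpl29 (r = 0.990), Treml2 (0.988) and Rpl13 (0.986), the first and last of which encode ribosomal proteins. Il6st was followed by Nr2c1 (0.879), Actn1 (0.854) and Abce1 (0.848), and Il27ra by the interferon-induced Mx1 (0.869), Rnf167 (0.847) and Pot1b (0.841). Il12rb2 ran with Plekho1 (0.952), Dapl1 (0.943) and Il7r (0.941), the last a gene of the sort itself. Il12rb1 ran with Unkl (0.957), the inhibitory receptor gene Lilrb4a (0.956) and Pdgfb (0.955). Il18r1 ran with Zfp36l1 (0.955), Eef2kmt (0.947) and Evl (0.943), and Il18rap with Galnt10 (0.962), the SLAM family receptor Ly9 (0.951) and Samd3 (0.948). The closest genes were Rasa1 (0.972), Dnajc9 (0.958) and Rad21 (0.947) for Il10ra, and Ifitm2 (0.932), Gpr183 (0.930) and Fcer1g (0.925) for Ifngr1.

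Among the ligands of these receptors, Il10 and Ifng were higher in effector cells and Il18 and Il12b lower, averaged over both genotypes. Of 13 ligand genes (the interleukin-18 decoy Il18bp included), 2 were higher and 2 lower in effector than in memory cells over both genotypes, with a median difference of -0.05, against 5.05% of all genes called higher and 7.11% called lower. Il10, the ligand of Il10ra, was 1.54 ± 0.23 higher in effector cells (adjusted p = 0.000234), with means of 6.49 in effector KO, 6.67 in effector WT, 4.73 in memory KO and 5.35 in memory WT. Ifng, the ligand of Ifngr1, was 1.21 ± 0.17 higher in effector cells (adjusted p = 0.000142), while its receptor chain was lower there. Taken by genotype, Il10 passed in KO and WT (adjusted p = 0.00284 and 0.0312). Ifng passed in KO (1.72, adjusted p = 0.000354) and not in WT (0.69, adjusted p = 0.15). Il18 was at -1.02 ± 0.25 (adjusted p = 0.0109) and Il12b at -0.48 ± 0.09 (adjusted p = 0.00167) over both genotypes. Il18 passed in neither genotype alone (adjusted p = 0.111 in KO and 0.118 in WT), and Il12b passed in WT (0.0139) and not in KO (0.0935). Il12b exceeded the array median only on 3 memory WT arrays, and Il18 did so on 4 memory WT arrays, 1 memory KO array and 1 effector WT array. Of the 12 B and CLL cell markers, 10 were called lower in effector cells over both genotypes. The 12 myeloid markers were mixed, with 4 called lower and 1 called higher (Cd68, 0.52, adjusted p = 0.0252). The part of B, CLL and myeloid cells in these ligand values was not tested. Il6 was under the median on all arrays, at 1.62 to 2.24, and its difference was -0.05 ± 0.09. Il27 was above the median on all arrays and its difference was 0.03 ± 0.14. Between KO and WT, 1 ligand passed, Ifng in memory cells (-1.34 ± 0.24, adjusted p = 0.0404), where 0.113% of all genes passed. Ifng was at 8.20, 8.70, 9.15 and 7.76 in KO and 9.62, 10.38, 9.62 and 9.54 in WT, while Ifngr1 on these arrays differed by -0.04.

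Of the partner and related receptor chains, 14 of 16 were measured, and 1 rose and 4 fell in effector against memory cells over both genotypes (median -0.11), where 12.2% of all genes were called. Ifngr2, which completes the interferon gamma receptor, fell with Ifngr1. It had 4.95, 5.11, 4.61 and 4.35 in effector KO and 5.59, 5.68, 6.20 and 6.06 in memory KO, against 5.36, 4.98, 5.17 and 5.41 in effector WT and 6.52, 6.09, 6.19 and 5.82 in memory WT. The sorts did not overlap, and the difference was -1.03 ± 0.13 (adjusted p = 6.81e-05). Il10rb, the second chain of the interleukin-10 receptor, was lower in effector cells (-0.28 ± 0.06, adjusted p = 0.00751) whereas Il10ra was higher. Ifnar2, of the type I interferon receptor, fell by 0.86 (SE 0.10, adjusted p = 3.49e-05). Il23r, which pairs with Il12rb1, averaged 0.78 lower (SE 0.16, adjusted p = 0.00392), on signals under the array median on all arrays. Its difference passed in WT (-1.25 ± 0.23, adjusted p = 0.00521) but not in KO (-0.30 ± 0.23, adjusted p = 0.515). Il21r rose by 0.55 ± 0.11 (adjusted p = 0.00382). Il10rb and Il21r passed in KO (adjusted p = 0.0379 and 0.0468) and not in WT (0.213 and 0.0796). In KO against WT over both sorts, Ifnar2 was the 1 of these chains that passed, 0.57 ± 0.10 higher in KO (adjusted p = 0.0289). Of all genes, 0.194% passed in that comparison.

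Below the receptors, 2 of 5 measured JAK and STAT genes passed between the sorts over both genotypes, again against 12.2% of all genes, a share that also stands beside the short lists that follow. Stat4, which carries the interleukin-12 signal, was lower in effector cells (-0.43 ± 0.07, adjusted p = 0.000704) and Tyk2 higher (0.44 ± 0.09, adjusted p = 0.00334). Within a genotype, Stat4 passed in KO (adjusted p = 0.00378) and not in WT (0.107). Tyk2 passed in neither genotype alone (0.053 in KO and 0.0596 in WT). Among 8 brakes, Socs1 (-0.84 ± 0.08, adjusted p = 5.67e-06) and the phosphatase gene Ptpn6 (-0.95 ± 0.11, adjusted p = 3.21e-05) fell and none rose. In the MyD88 branch, 9 of 10 were measured, with Irak2 higher (0.43 ± 0.09) and Irak3 lower (-0.40 ± 0.11) over both genotypes. Irak3 passed in WT (-0.72, adjusted p = 0.0184) and not in KO (-0.09, adjusted p = 0.832). Irak2 passed in neither genotype alone (adjusted p = 0.0721 in KO and 0.0604 in WT). Neither of the 2 sheddase genes Adam10 and Adam17, which can cut receptor ectodomains, passed (median -0.03). Between KO and WT, limma called 0 genes of the JAK and STAT, brake, MyD88 and sheddase lists in each sort, with at most 2 genes of a list at an unadjusted p under 0.05. Of all genes it called 0.0541% in effector and 0.113% in memory cells, with 9.32% and 11.3% at that unadjusted level.

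**Figure D4:**
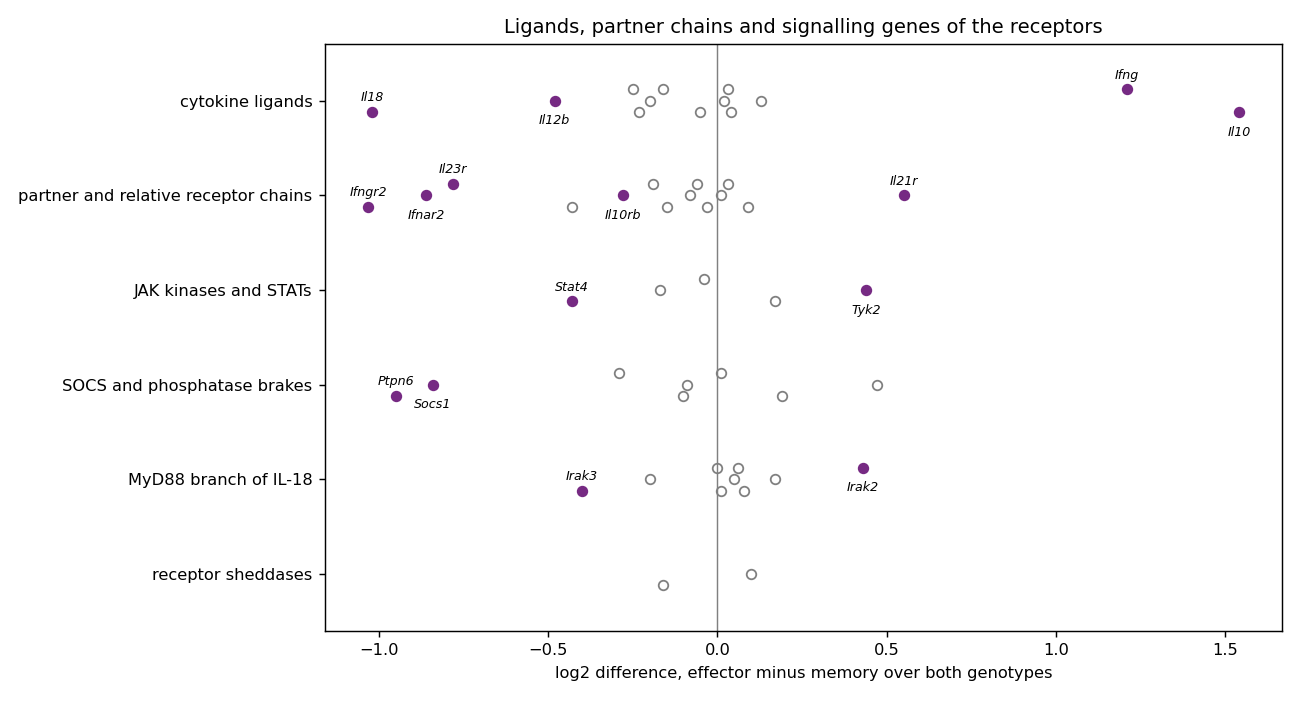
Log2 difference, effector minus memory over both genotypes (x axis), for each measured gene of 6 lists around the receptors (y axis), spread vertically for legibility. Filled, named points passed an adjusted p of 0.05, from Ifngr2 at -1.03 to Il10 at 1.54, and open points did not.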

How the data were processed

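The table holds log2 expression values for 41345 probe sets on 16 one-colour Affymetrix arrays, normalized by the authors before they were deposited. Per the labels' protocols, 1 ng of total RNA from sorted cells was amplified and biotin-labelled with the GeneChip WT Pico kit. Neither the normalization method nor the log base is stated by the labels or the table. Base 2 was inferred from the range, 0.7365 to 14.0453, and no background or detection call was used, so the number of arrays limits the precision.

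Probe sets with exactly 1 symbol in the platform table (23521) gave 22180 genes, taking the highest mean over all arrays where a gene had several (1082 genes). limma 3.58.1 in R 4.3.3 fitted a mean per group to all 16 arrays (12 residual degrees of freedom, prior 4.23). It gave 7 comparisons: effector minus memory in KO, in WT and over both, KO minus WT in effector cells, in memory cells and over both, and the interaction. Benjamini-Hochberg adjustment ran over all genes, two-sided. The fit was also run on simulated data with independent noise for each gene and array. Those data held no pairing of arrays and no outlying array, so the simulation says nothing about either.

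The receptor chains and gene lists were chosen with earlier results of these data known. All 9 chains are named. From the pathway lists the text names genes that passed, up to 8 a list, and Ifng, Il6, Il12b, Il18 and Il27 in any case, and for each chain the 3 genes most correlated with it, predicted genes left out. Il10 and Il10rb are named under that rule. Alternatives were quantile normalization, median scaling, a filter on dim genes, the mean of probe sets, an intensity trend, the compared groups alone, replicate numbers as a block, and leaving out each array. A further gene list is not reported here.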

Additional observations from a re-analysis of the deposited data

Results flagged for a closer look

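Of 56 groups of 4 arrays examined (14 genes in 4 groups), 4 had an array that stood further from the rest than Dixon's 95% critical value allows, and about 5% of groups do so by chance. Il6st read 9.68 on effector WT 2, against 8.95 to 9.04 on the other effector WT arrays. Il12rb1 read 7.55 on memory KO 1, against 7.27 to 7.28 on the others of that group. Il12rb2 read 5.45 on memory KO 4, against 6.15 to 6.29. Ifng read 10.38 on memory WT 2, against 9.54 to 9.62. No interaction between genotype and sort passed for these genes.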

How the results depend on the processing

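The effector against memory calls of Il6ra, Il12rb1, Il12rb2, Il18r1 and Ifngr1 stood in each genotype under all 24 alternatives, and no alternative called any of the 9 chains between KO and WT. The number of genes called moved more. Fitting the compared groups alone gave 600 genes for effector minus memory in KO (1649 as reported), 1320 in WT (715), 4 for KO minus WT in effector cells (12) and 7 in memory cells (25). Shifting arrays to a common median gave 38 in memory cells and 65 over both sorts (43 as reported), where the filter on dim genes gave 96 and the intensity trend 78. The labels do not say that a replicate number marks a shared animal. Same-numbered effector and memory arrays of a genotype correlated at 0.02 to 0.24 in their deviations, with 6 of 8 pairs over 0.1 and 7 of 8 matching their own number best, a hint of pairing from the data. Same-numbered KO and WT arrays correlated at -0.03 to 0.14, with 2 of 8 over 0.1 and 4 of 8 matching best. With the replicate block KO minus WT gave 29 genes in effector cells, 104 in memory cells and 389 over both. It also called Il18rap (adjusted p = 0.0245) and Il10ra (0.0382) in WT and Il6st over both genotypes (0.0405), and the replicate block within genotype called Il18rap in KO (0.0224) and WT (0.00712), Il10ra in WT (0.00989) and Il6st over both genotypes (0.0448). The causes were not tested.

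Leaving out an array gave 961 (memory KO 4) to 2044 (effector KO 4) genes for effector minus memory in KO, 359 (memory WT 1) to 1037 (effector KO 4) in WT and 2144 to 3221 over both. For KO minus WT it gave 4 (effector WT 1) to 42 (effector KO 2) in effector cells, 11 (memory KO 4) to 249 (memory KO 3) in memory cells and 23 (memory WT 1) to 329 (effector KO 2) over both, and 0 to 5 (memory KO 3) for the interaction. Values near 0 changed sign. Leaving out an array, effector minus memory ran between -0.19 and 0.02 for Il27ra in KO and between -0.30 and 0.06 for Il6st in WT. KO minus WT in effector cells ran between -0.17 and 0.01 for Il12rb1, -0.10 and 0.06 for Il27ra, and -0.11 and 0.05 for Ifngr1. In memory cells it ran between -0.19 and 0.23 for Il12rb2 and -0.14 and 0.03 for Ifngr1, which over both sorts ran between -0.07 and 0.02. The interaction ran between -0.02 and 0.40 for Il12rb2, -0.05 and 0.40 for Il18r1, -0.02 and 0.67 for Il18rap, -0.07 and 0.23 for Il10ra, and -0.07 and 0.14 for Ifngr1. Quantile normalization put Ifngr1 at 0.01 in effector cells, memory cells and over both and at 0.00 for the interaction, and a common median put Il12rb2 at -0.01 in memory cells.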
